A study of Homo sapiens with 6 samples.

Results

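The MYC and MAX network is a set of transcription factors that pair through a basic helix-loop-helix leucine zipper, and 9 genes of it or named for it are described here: MYC, MAX, MXD1, MXD4, MXI1, MNT, MLX, MYCBP and MYCBP2. They were taken as a fixed list of gene names, and every probe set annotated to 1 of them alone was used, which gave 22 probe sets of 22215 and 9 genes of 12165. LNCaP, an established line of human prostate cancer cells, is sensitive to androgen, and gedunin is a limonoid from neem. The groups were LNCaP cells exposed to 20 µM gedunin for 6 h (3 arrays) and LNCaP cells exposed to the solvent DMSO for 6 h (3 arrays). Both groups were grown in RPMI medium with serum, and total RNA from each was hybridised as biotin-labelled cRNA to an Affymetrix array. The labels number the arrays of each group as biological replicates of 1 cell line and say nothing of when they were grown. The p-values therefore cover only the variation among the arrays compared, in the main comparison 3 gedunin and 2 DMSO arrays.

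In this network MYC binds DNA only as a pair with MAX, at the hexamer CACGTG (an E-box), and raises genes for ribosome assembly, metabolism and division. MXD1, MXI1, MXD4 and MNT compete for MAX, and their pairs recruit SIN3 corepressors to the same sites. MLX is a second hub that pairs with the glucose-sensing factors MLXIP and MLXIPL and with some of the MXD proteins. MYCBP binds the amino-terminal part of MYC, and MYCBP2 is a very large ubiquitin ligase that was first isolated through its binding to MYC. MYC is often raised in prostate cancer.

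The third DMSO array lacked the defining markers of LNCaP cells and, still called by its label DMSO 3, was kept out of the main comparison. KLK3, which encodes prostate-specific antigen, read 24.5 on it and 1702 to 2093 on the other 5 arrays, and FOLH1, prostate-specific membrane antigen, read 25.03 against 6126 to 7626. CD74, the class II invariant chain of antigen-presenting cells, read 4294 on it against 19.1 to 20.8, and PTPRC (CD45), a marker of all leukocytes, was at 435 there and at 23.3 to 24.5 elsewhere. Of 8 measured luminal prostate markers 6 were at least 8-fold under the mean of the remaining 5 arrays, and of 11 measured leukocyte markers 11 were at least 8-fold over it. All changes below therefore compare 3 gedunin arrays with DMSO 1 and DMSO 2, and values with all 6 arrays are added where they end a call. Between these 5 arrays, 0 of 11 leukocyte markers passed limma's test (2 lower at an unadjusted p of 0.05), and their summed intensity was 804 to 889.7 with gedunin and 982 to 989 on DMSO 1 and 2, most of it from LCP1, an actin-bundling gene that read 564 or more on each array. Summed luminal markers read 13639 to 14283 with gedunin and 14359 to 14765 on DMSO 1 and 2, with KRT18 and KRT8 called higher and TMPRSS2 and HOXB13 called lower.

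With gedunin, MYC mRNA stood at 54.9% of its level on DMSO 1 and 2, the largest fall among the members. MLX fell on 3 of its 4 probe sets, MYCBP on 2 of 3, MXD4 on 2 of 3 and MAX on 1 of 6. MXD1 was the 1 member called higher. It rose from 17.7 and 16.8 on DMSO 1 and 2, below the lower quartile of each array (19.5 and 19.4). MXI1, MNT and MYCBP2 did not pass the test on any probe set. In all, 9 of 22 member probe sets were lower and 1 was higher at an adjusted p of 0.05 (limma over all probe sets, Benjamini-Hochberg). Of all probe sets 7.91% were lower and 7.37% higher. Several of the lower probe sets share a gene. By the brightest probe set of each gene, 3 of 9 members were lower and 1 higher, beside 9.36% and 8.24% of all genes. When only the 11081 probe sets above the median were fitted, 1805 of them were lower and 1608 higher, with 9 member probe sets lower and 0 higher. The median log2 fold change was -0.22 over the member probe sets and -0.012 over all 22215.

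All 3 gedunin arrays lay below DMSO 1 and 2 for 14 member probe sets, against 23.5% of all probe sets, and above both for 5, against 19.3%. In these bulk samples, fewer cells with a transcript and less of it per cell cannot be told apart. The count of lower probe sets was 3 without DMSO 1, 4 without DMSO 2 and 2 with all 6 arrays (where 0.27% of all probe sets were lower and 1.13% higher), and the 1 higher call was lost without gedunin 1, without DMSO 1, without DMSO 2 and with all 6 arrays. Centring each array on GAPDH and ACTB, which moved the median of all genes to -0.15 from -0.017, gave 13 lower and 0 higher. That centring split all called probe sets into 4139 lower and 1130 higher, against 1758 and 1638 as deposited.

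**Figure D1:**
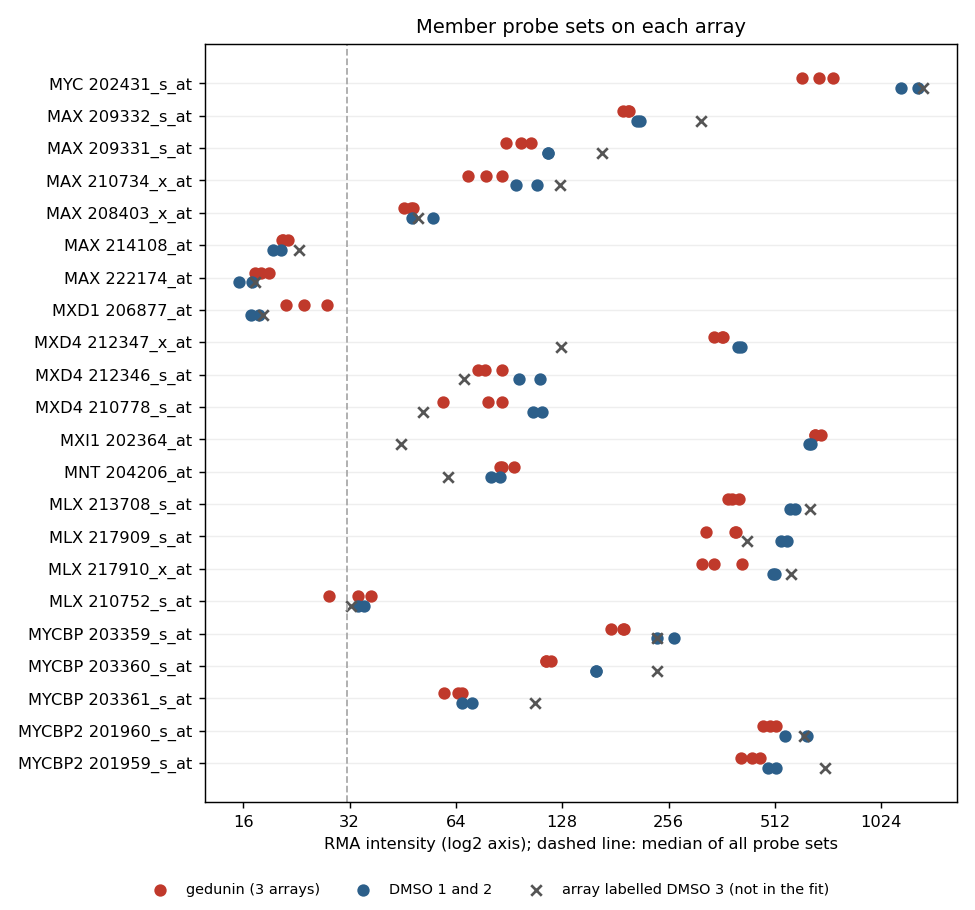
RMA intensity on a log2 axis for the 22 member probe sets, 1 row each, with gedunin arrays as red points, DMSO 1 and 2 as blue points and the array labelled DMSO 3 as a grey cross; the dashed line is the median of all probe sets on the 5 arrays of the comparison (31.5). Red and blue points of MYC and of 3 MLX probe sets are apart, and the cross of MXI1 stands far to the left of its other points.

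MYC, the activating partner of the network, was read by 1 probe set (202431_s_at). Its intensity was 609, 746 and 681 on the gedunin arrays and 1167 and 1301 on DMSO 1 and 2. Every gedunin array was thus below both controls, and the highest of them lay well under the lower control. The log2 fold change was -0.87 ± 0.11 (moderated standard error, n = 3 and 2 arrays; adjusted p = 4.97e-04), with a 95% interval of -1.11 to -0.62. The array labelled DMSO 3, which lacked the LNCaP markers, read 1345. With all 6 arrays the change was -0.91 ± 0.11 (adjusted p = 0.0330), but that array cannot serve as a check of the LNCaP controls. MYC remained called when each of the 5 arrays was left out in turn, with changes of -0.94 to -0.79.

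MAX, the obligate partner of MYC and of the MXD proteins, had 6 probe sets that did not move alike. On 210734_x_at the gedunin arrays read 77.9, 86.3 and 69.3 and the controls 108.7 and 94.8. The groups did not overlap, and MAX fell on this probe set by 0.39 ± 0.11 on the log2 scale (adjusted p = 0.0459). The call was lost when any 1 of gedunin 1, gedunin 3, DMSO 1 or DMSO 2 was left out (adjusted p between 0.0850 and 0.308) and with all 6 arrays (adjusted p = 0.256). It was also lost with median centring, a second quantile normalization, or a trend in the variance (adjusted p between 0.0505 and 0.0693). On the brightest probe set, 209332_s_at, the gedunin arrays read 198, 196 and 189.6 and the controls 212 and 209, a log2 fold change of -0.11 ± 0.08 (adjusted p = 0.459) with a 95% interval of -0.30 to 0.076.

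The probe set 209331_s_at of MAX had -0.27 ± 0.10 (adjusted p = 0.0972). The other 3 had log2 fold changes of -0.12 (208403_x_at), 0.067 (214108_at) and 0.15 (222174_at), none of them called. The last 2 of these lay below the array median on all 5 arrays, where the RMA method used for these values compresses folds. A suffix of _x_at marks probe sets with probes that may bind other transcripts and _s_at those shared by several transcripts. Which MAX transcript each probe set reads was not analysed here.

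**Figure D2:**
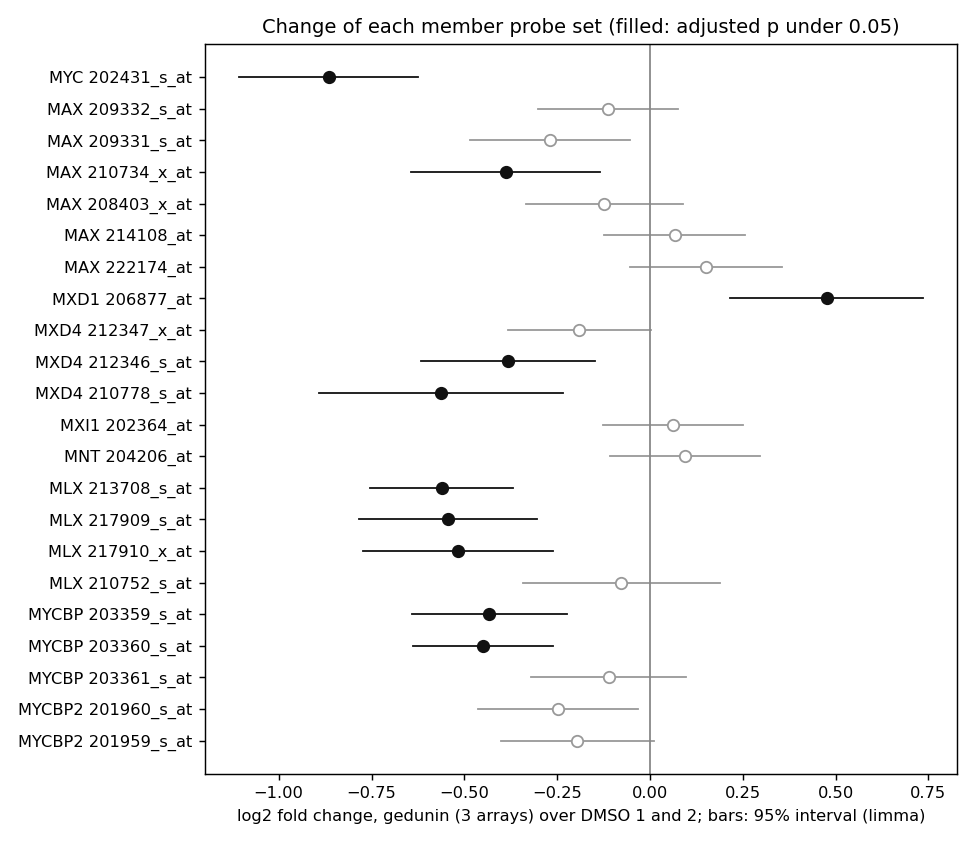
Log2 fold change of each of the 22 member probe sets, gedunin (3 arrays) over DMSO 1 and 2, with 95% intervals from limma; filled points passed an adjusted p of 0.05 and open points did not. The 9 filled points left of 0 belong to MYC, MAX, MXD4, MLX and MYCBP, and the 1 to the right is MXD1.

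The repressive partners of MAX went different ways. MXD1, a MAX partner typical of differentiating cells, read 27.6, 23.8 and 21.1 with gedunin and 17.7 and 16.8 on DMSO 1 and 2. The groups did not overlap, and MXD1 rose by 0.48 ± 0.12 on the log2 scale (adjusted p = 0.0209). All 5 values lay below the array median of 31.5, and with all 6 arrays the change of 0.45 was not called (adjusted p = 0.207). Without gedunin 1, the highest of the gedunin arrays, it was 0.38 (adjusted p = 0.0520), without DMSO 1 it was 0.51 (adjusted p = 0.0972) and without DMSO 2 it was 0.44 (adjusted p = 0.148). It also missed the threshold when arrays were centred on GAPDH and ACTB (adjusted p = 0.0568) and with 16 added to each value (adjusted p = 0.0522).

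MXD4, a family member found in many resting tissues, was lower on all 3 probe sets and called on 2. On 210778_s_at the gedunin arrays read 86.6, 79.0 and 58.9 and the controls 112 and 106, a fall of 0.56 ± 0.15 on the log2 scale (adjusted p = 0.0289). On 212346_s_at they read 77.6, 73.8 and 86.6 against 96.2 and 110.5, a fall of 0.38 ± 0.10 (adjusted p = 0.0357). The groups were apart on both, although gedunin 3 was the lowest array on the first probe set and the highest of its group on the second. On the brightest, 212347_x_at, the arrays read 364, 363 and 343 against 411 and 403, and the change of -0.19 ± 0.09 was not called (adjusted p = 0.188).

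Both MXD4 calls were lost without DMSO 1, without DMSO 2 (adjusted p between 0.0650 and 0.264) and with all 6 arrays (adjusted p = 0.828 and 0.746). That of 212346_s_at was also lost without gedunin 1 and without gedunin 2 (adjusted p = 0.0915 and 0.0992) and with a second quantile normalization (adjusted p = 0.0596). MXD4 was also lower on the array labelled DMSO 3, where the 3 probe sets read 51.7, 67.4 and 127 in the same order. With that array among the controls 212347_x_at changed sign, to 0.37.

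MXI1, the MXD family member first isolated as a MAX interactor, read 690.0, 663 and 663 with gedunin and 646 and 640.1 on DMSO 1 and 2. The gedunin arrays were above the controls by a small margin, with a log2 fold change of 0.063 ± 0.08 (adjusted p = 0.706) and a 95% interval of -0.13 to 0.25. MNT, the MAX partner that is made in most cells and opposes MYC, read 86.3, 85.1 and 93.7 against 80.4 and 85.1. Its change was 0.095 ± 0.09 (adjusted p = 0.577), with an interval of -0.11 to 0.30. The intervals allow a rise or a fall of either gene, and the sign of both turned when arrays were centred on GAPDH and ACTB (-0.068 for MXI1 and -0.037 for MNT).

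MLX, the hub that pairs with MLXIP and MLXIPL, fell on 3 probe sets. On the brightest, 213708_s_at, the gedunin arrays read 376, 388 and 404 and the controls 566 and 583. The fall was 0.56 ± 0.09 on the log2 scale (adjusted p = 0.00172), and it was called with all 6 arrays as well (-0.61 ± 0.09, adjusted p = 0.0453) and with each of the 5 arrays left out in turn. On 217909_s_at the arrays read 327, 398 and 396 against 532 and 553 (-0.54 ± 0.11, adjusted p = 0.00699), and on 217910_x_at 412, 319 and 343 against 506 and 512 (-0.52 ± 0.11, adjusted p = 0.0132).

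On these 3 probe sets of MLX every gedunin array was below both controls. The calls of 217909_s_at and 217910_x_at were lost without DMSO 1, without DMSO 2 (adjusted p between 0.0511 and 0.0980) and with all 6 arrays (adjusted p = 0.331 and 0.134). The 1 dim probe set of MLX, 210752_s_at, read 28.0 to 36.8 with gedunin and 33.7 and 35.2 on the controls, so that the groups overlapped (-0.077 ± 0.12, adjusted p = 0.745).

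Promoter windows were read for the members, since several of these genes fell together and MAX pairs bind a known hexamer. RefSeq windows of 300 bases (250 before the gene start and 50 from it, GRCh38.p14) matched 8 of 9 members, all except MYC, with 12 windows in all because MXI1, MAX and MYCBP have several starts. The E-box CACGTG, a palindrome, was in 1 window each of MLX, MXD4 and MNT, that is 3 of 12 windows, and in 7.26% of all 35116 windows. Of these 3 genes, MLX and MXD4 had probe sets that fell and MNT had none. MAX and MYCBP also had probe sets that fell, and no window of either held CACGTG. The MLX window spans chr17:42566850-42567149 on the plus strand with its E-box starting 50 bases before the gene start, the MXD4 window chr4:2262060-2262359 on the minus strand with its E-box 238 bases before, and the MNT window chr17:2401011-2401310 on the minus strand with its E-box 193 bases before. They are shown 5′ to 3′ with the E-box in capitals.
MLX: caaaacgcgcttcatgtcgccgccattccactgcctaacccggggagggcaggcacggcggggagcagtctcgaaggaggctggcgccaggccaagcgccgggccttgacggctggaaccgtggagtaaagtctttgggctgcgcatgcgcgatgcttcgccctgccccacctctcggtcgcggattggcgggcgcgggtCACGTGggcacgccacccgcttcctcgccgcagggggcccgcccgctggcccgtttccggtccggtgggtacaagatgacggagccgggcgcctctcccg
MXD4: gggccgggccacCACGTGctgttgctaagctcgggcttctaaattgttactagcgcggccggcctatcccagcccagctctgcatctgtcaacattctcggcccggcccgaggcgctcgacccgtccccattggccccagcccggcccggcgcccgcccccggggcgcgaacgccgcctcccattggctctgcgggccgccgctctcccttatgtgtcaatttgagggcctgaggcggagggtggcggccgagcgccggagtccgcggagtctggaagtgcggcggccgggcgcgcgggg
MNT: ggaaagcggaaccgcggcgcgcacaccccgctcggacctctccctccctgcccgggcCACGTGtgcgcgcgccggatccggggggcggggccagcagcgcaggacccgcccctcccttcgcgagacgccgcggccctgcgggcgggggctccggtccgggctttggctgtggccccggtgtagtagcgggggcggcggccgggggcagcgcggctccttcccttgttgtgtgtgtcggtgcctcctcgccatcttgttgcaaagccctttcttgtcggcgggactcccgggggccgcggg

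MXD1, the member that rose, had no CACGTG in its window (chr2:69914859-69915158, plus strand). It held 1 match to TGACNNNGC, the core of the antioxidant response element, on the opposite strand and starting 208 bases before the gene start. That match is in capitals here because it is the only one of the 5 motifs searched that the window held.
MXD1: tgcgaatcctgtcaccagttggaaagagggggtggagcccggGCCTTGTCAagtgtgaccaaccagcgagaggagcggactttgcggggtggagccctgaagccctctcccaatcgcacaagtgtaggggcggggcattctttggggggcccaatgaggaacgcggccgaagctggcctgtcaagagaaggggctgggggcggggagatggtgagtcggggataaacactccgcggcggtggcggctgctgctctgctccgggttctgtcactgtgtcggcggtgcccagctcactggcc

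Of all windows 13.3% held TGACNNNGC on either strand, and among members MLX held it too, starting at base 27 of the transcript. The variant E-box CACGCG was in 1 member window, of MXI1, and in 11.4% of all windows. A pair of heat shock units, GAANNTTC, and the amino acid response element TTGCATCA were in 0 of 12 member windows, and in 6.77% and 0.866% of all windows. All motifs were searched on both strands, and none of the 5 overlapped another by its letters in a member window. A match describes these letters in these windows only.

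MYCBP, the small protein that binds MYC, fell on 2 of its 3 probe sets. On 203360_s_at the gedunin arrays read 119, 115 and 115 and both controls 159, a fall of 0.45 ± 0.08 on the log2 scale (adjusted p = 0.00524). On 203359_s_at they read 176, 191 and 190.3 against 264 and 237, a fall of 0.43 ± 0.09 (adjusted p = 0.0116). The groups were apart on both, and the size of the fall was alike. On the dimmest, 203361_s_at, they read 66.7, 65.1 and 59.1 against 66.5 and 70.9 and overlapped (-0.11 ± 0.09, adjusted p = 0.512).

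With all 6 arrays neither MYCBP probe set was called (adjusted p = 0.226 for 203360_s_at and 0.134 for 203359_s_at), and the call of 203359_s_at was lost without DMSO 1 (-0.35, adjusted p = 0.122). MYCBP2, the ubiquitin ligase, read 472, 496 and 516 on 201960_s_at against 548 and 629, and 466, 411 and 440.1 on 201959_s_at against 515 and 489.6. All gedunin arrays were below both controls on both probe sets, but the changes of -0.25 ± 0.10 (adjusted p = 0.129) and -0.20 ± 0.09 (adjusted p = 0.210) did not pass. Both passed when arrays were centred on GAPDH and ACTB (-0.38 and -0.33).

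On the array labelled DMSO 3, 0 of 22 member probe sets lay at least 2-fold above the mean of DMSO 1 and 2 and 3 lay at least 2-fold below it, where 8.13% and 11.0% of all probe sets did. This is 1 array, so its differences have no error and no test. MXI1 stood out with a reading of 44.6, which is 14.4-fold below DMSO 1 and 2, and with it among the controls the change of MXI1 was 1.35 ± 1.09 (adjusted p = 0.698). The other 2 were the MXD4 probe sets 212347_x_at, 3.20-fold below, and 210778_s_at, 2.11-fold below. MYC itself read only 1.09-fold above DMSO 1 and 2 there, MLX 213708_s_at 1.12-fold above and MXD1 1.05-fold above. The largest differences upward were 1.56-fold (MYCBP 203361_s_at) and 1.50-fold (MAX 209332_s_at).

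**Figure D3:**
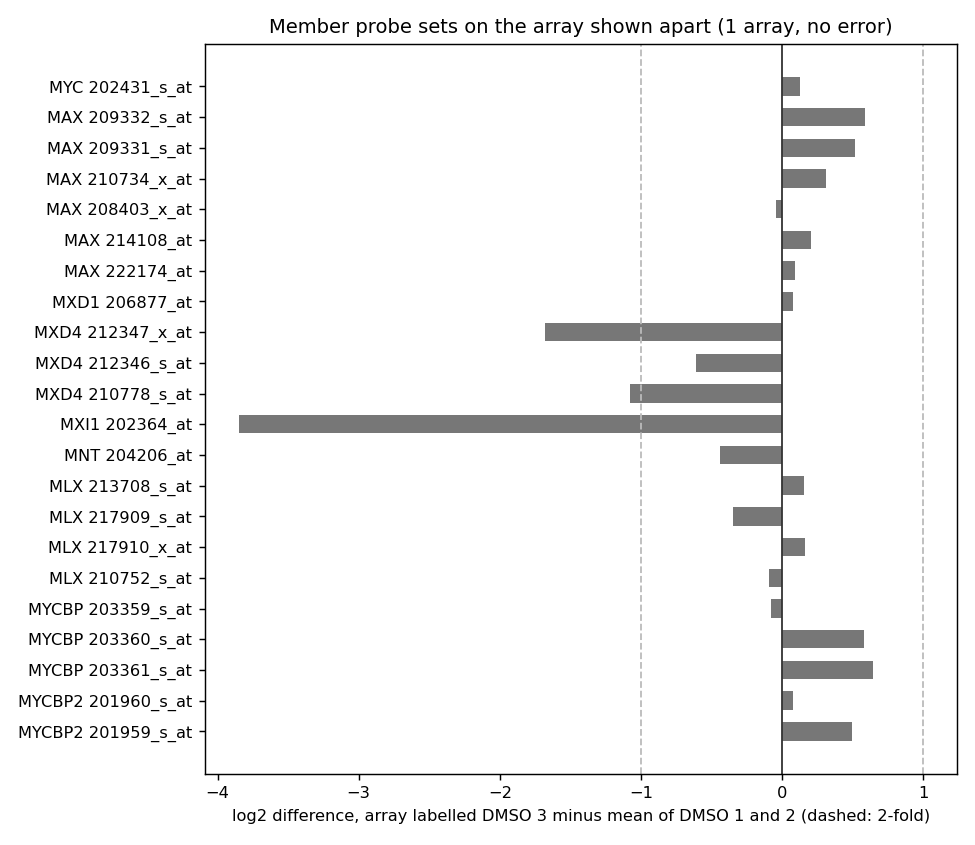
Log2 difference of each member probe set on the array labelled DMSO 3 from the mean of DMSO 1 and 2, with dashed lines at 2-fold. MXI1 reaches -3.85 and 2 MXD4 probe sets pass the lower line, while MYC is at 0.13.

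Genes around the members were counted from 9 lists, each gene by its brightest probe set, where 9.36% of all 12165 genes were lower and 8.24% higher (0.362% and 1.31% with all 6 arrays). Of the remaining partners of the network, 0 of 6 measured were called by limma (1 lower at an unadjusted p of 0.05), and 1 was lower without gedunin 1 or without DMSO 1. MYCN read 19.7 to 21.9 with gedunin and 19.2 and 21.3 on DMSO 1 and 2, MYCL 21.2 to 22.5 against 22.0 and 24.2, and MLXIPL 23.0 to 25.5 against 24.2 and 26.4, all below the array median on every one of these arrays. MXD3 had a log2 fold change of -0.31 ± 0.16, with 1 control at 36.7 and the other at 58.3, and the MAX-binding factor MGA had -0.15 ± 0.16. MLXIP, the MLX partner also called MondoA, read 174, 137 and 125 against 198 and 177, and its change of -0.38 ± 0.14 did not pass (adjusted p = 0.0993).

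Among cofactors of MYC and MAX, 4 of 22 measured genes fell and 1 rose, with a median of -0.092 beside -0.017 over all genes. CDK9, the kinase of the elongation factor P-TEFb, read 86.7, 76.5 and 64.7 with gedunin against 113 and 129 and fell by 0.68 ± 0.13 on the log2 scale (adjusted p = 0.00524). CCNT1, its cyclin, fell by 0.50 ± 0.13 (adjusted p = 0.0262), and the deacetylases HDAC1 and HDAC2, which SIN3 complexes carry, fell by 0.35 ± 0.09 and 0.33 ± 0.09. BIN1, which binds MYC and restrains it, rose by 0.52 ± 0.11 (adjusted p = 0.00832). Without DMSO 1 or without DMSO 2 the count called was 1, without gedunin 1 or without gedunin 3 it was 3, and with all 6 arrays limma called 0 (6 at an unadjusted p of 0.05).

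Of the genes acting on MYC protein stability, 3 of 20 measured rose and 3 fell (median 0.0051). FBXL14, an F-box protein that targets MYC, read 181, 158 and 140.1 with gedunin against 98.3 and 76.8 and rose by 0.87 ± 0.13 (adjusted p = 0.00180). USP13, a deubiquitinase, rose by 0.36 ± 0.11, and PPP2CA, a phosphatase 2A catalytic subunit, by 0.36 ± 0.09. SKP2, an F-box protein that both marks and coactivates MYC, fell by 0.67 ± 0.19 (adjusted p = 0.0432). AURKA, a kinase that shields MYC proteins from turnover, fell by 0.48 ± 0.09 and PPP2R5A, a phosphatase 2A regulatory subunit, by 0.42 ± 0.11. SKP2, AURKA, PPP2R5A and PPP2CA had other probe sets as well, and none of those was called. The count called was 2 without gedunin 2 or without DMSO 1, 3 without gedunin 1, 1 without DMSO 2 and 0 with all 6 arrays (limma; 5 at an unadjusted p of 0.05), and centring on GAPDH and ACTB split it into 6 lower and 1 higher.

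Of the factors acting on the MYC gene or its mRNA, 2 of 22 measured rose and 3 fell (median -0.033). ZFP36, which speeds the decay of AU-rich mRNAs, read 494, 600.1 and 619 with gedunin against 147 and 199 and rose by 1.73 ± 0.14 (adjusted p = 3.08e-05). CNBP, which binds the MYC promoter, rose by 0.31 ± 0.08. E2F4, a repressor of cell cycle promoters, fell by 0.51 ± 0.09, but its 1 other probe set was not called. PUF60, a repressor of MYC transcription, fell by 0.46 ± 0.09 and the insulator protein CTCF by 0.39 ± 0.10. The count called was 3 without gedunin 2, without gedunin 3 or without DMSO 2, 1 without DMSO 1 and 0 with all 6 arrays (limma; 4 at an unadjusted p of 0.05), where ZFP36 had an adjusted p of 0.395. ZFP36 read 503 on the array labelled DMSO 3. Centring on GAPDH and ACTB split the list into 5 lower and 1 higher.

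Of the genes that MYC is known to raise, 18 of 63 measured fell, 28.6% beside 9.36% of all genes, and 4 rose. Their median log2 fold change was -0.21, beside -0.017 over all genes. When only the 11081 probe sets above the median were fitted, 1805 of those were lower and their median was -0.061. RRS1, a ribosome assembly factor, read 81.6, 87.7 and 85.2 with gedunin against 218 and 221 and fell by 1.37 ± 0.09 (adjusted p = 4.69e-06). BYSL, a factor of small-subunit assembly, read 42.3, 43.0 and 49.0 against 89.4 and 117 and fell by 1.20 ± 0.13. NOP2, a nucleolar RNA methyltransferase, fell by 0.90 ± 0.10, from 222 and 255 to between 121 and 134. NDUFAF4, an assembly factor of respiratory complex I, fell by 0.92 ± 0.10 and the mitochondrial RNA-binding gene TBRG4 by 0.80 ± 0.12. The 1 other probe set of TBRG4 was not called.

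The 4 members of that list that rose were HSPE1 and HSPD1, the cochaperonin and chaperonin of mitochondria, SHMT2, a mitochondrial enzyme of serine use, and PRMT3, an arginine methyltransferase. HSPE1 rose by 1.05 ± 0.09 (adjusted p = 5.35e-05), and the remaining 3, named after their values were seen, by 0.78 (HSPD1), 0.51 (SHMT2) and 0.41 (PRMT3). The list was written with earlier results of these data known. With all 6 arrays 3 fell and 2 rose, without DMSO 2 the counts were 10 and 3, and centring on GAPDH and ACTB gave 36 and 3.

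Genes that MYC lowers gave 5 of 23 measured higher and 2 lower, with a median of -0.017. GADD45A, a stress-induced growth arrest gene, read 898, 909 and 1008 with gedunin against 139.7 and 168 and rose by 2.61 ± 0.11 (adjusted p = 2.31e-07). CDKN1A, the CDK inhibitor p21, read 3379, 3304 and 3348 against 759.8 and 902 and rose by 2.01 ± 0.10 (adjusted p = 7.44e-07). The secreted chaperone clusterin (CLU) rose by 2.02 ± 0.14, the CDK inhibitor CDKN1B (p27) by 0.65 ± 0.15 and GADD45B by 0.59 ± 0.12, while cyclin D1 (CCND1) fell by 0.91 ± 0.13 and cyclin G2 (CCNG2), named after its value was seen, by 0.37. With all 6 arrays only GADD45A and CDKN1A were called.

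Among genes raised by MLX pairs, 1 of 9 measured rose and 1 fell (median -0.083). TXNIP, the arrestin-like inhibitor of glucose uptake that MLXIP and MLX drive, read 822, 847 and 932 with gedunin against 1713 and 1673 and fell by 0.97 ± 0.09 (adjusted p = 8.09e-05), and both of its other probe sets fell too. LPIN1, a phosphatidate phosphatase, rose by 0.70 ± 0.09 (adjusted p = 7.40e-04). With all 6 arrays neither was called (1 of the 9 at an unadjusted p of 0.05), and TXNIP read 411 on the array labelled DMSO 3.

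Of other factors that bind E-boxes, 3 of 10 measured rose and 0 fell by limma (4 and 0 at an unadjusted p of 0.05; median 0.15), beside 8.24% of all genes higher. TFE3, a factor of lysosomal and stress genes, read 303, 285 and 341 with gedunin against 181 and 207 and rose by 0.67 ± 0.11 (adjusted p = 0.00208). BHLHE40, a repressor tied to the clock and hypoxia, rose by 0.77 ± 0.09. MITF, the melanocyte factor related to TFE3, rose by 0.55 ± 0.09. BHLHE40 and MITF rose from about the array median, and the 1 other probe set of BHLHE40 was not called. With all 6 arrays limma called 0 (2 at an unadjusted p of 0.05).

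Among partners of MYCBP and MYCBP2, 2 of 9 measured fell and 1 rose (median -0.19). AKAP1, a mitochondrial anchoring protein that binds MYCBP, read 187, 182 and 220.0 with gedunin against 353 and 380.4 and fell by 0.91 ± 0.11 (adjusted p = 3.10e-04; with all 6 arrays adjusted p = 0.0257). TFDP1, the E2F partner, fell by 0.68 ± 0.09, and RAE1, an RNA export factor that binds MYCBP2, rose by 0.69 ± 0.10. With all 6 arrays the count called was 1, and centring on GAPDH and ACTB split the list into 5 lower and 1 higher.

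**Figure D4:**
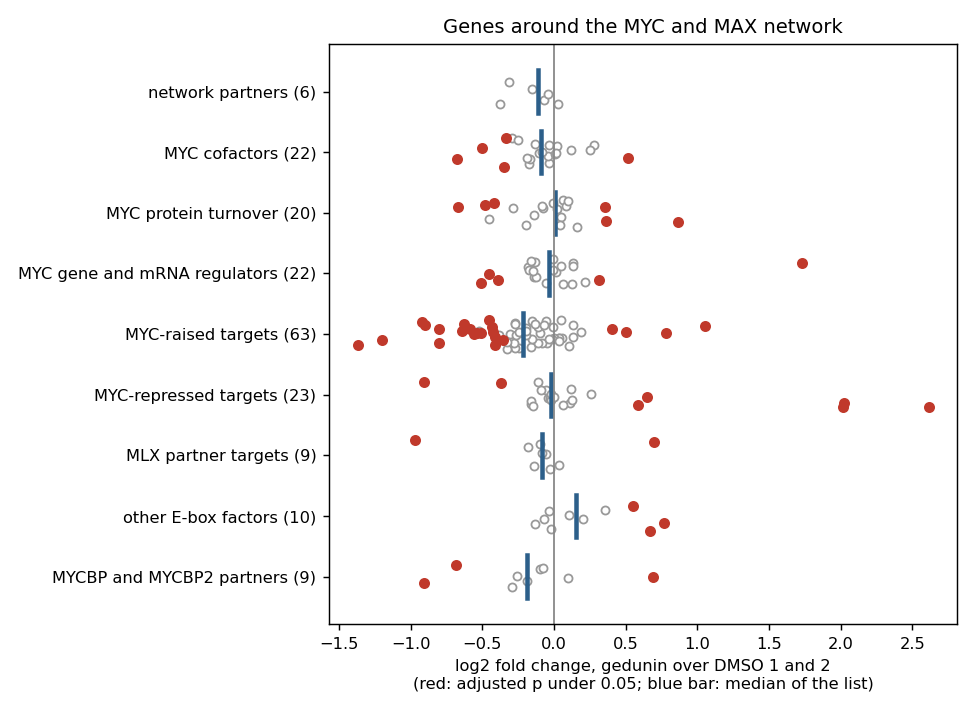
Log2 fold change, gedunin (3 arrays) over DMSO 1 and 2, of each measured gene in 9 lists around the network, with the number of genes in parentheses; red points passed an adjusted p of 0.05, open points did not, and blue bars are list medians. The MYC-raised list has 18 red points left of 0 and 4 right of it, with its bar at -0.21.

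By profile over the 5 arrays, the genes most like MYC among 12164 others were ZNF692, ZCCHC24, LCMT2, WDR6 and ESPL1. Likeness was the Euclidean distance between log2 values taken relative to the mean of DMSO 1 and 2, which ran from 0.066 for ZNF692 to 0.18 for ESPL1. ZNF692, a zinc finger gene, read 159.9, 187 and 180.2 with gedunin against 302 and 343, so that gedunin 1 was the lowest and DMSO 2 the highest, as for MYC. Of the members other than MYC, MLX had the largest change by its brightest probe set. The genes most like it were RRAGA, MALL, ATG2A, ATR and CLN8, at distances of 0.053 to 0.083. RRAGA, a small GTPase that signals amino acid supply at lysosomes, read 1080.1, 1083 and 1127 against 1626 and 1662. With so many genes and only 5 arrays, near profiles are a description.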

How the data were processed

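Total RNA of LNCaP cells was measured on 6 Affymetrix arrays. The deposited table holds linear intensities of 22215 probe sets on each array. The authors made them with RMA (no version given), per the submitters' processing notes. This method subtracts background, quantile-normalizes and summarises probes, and which arrays were processed together is not given in the sources used here. The table was taken as linear because no value is negative and the brightest are far beyond any log2 scale, so log2 was taken without a pseudocount. Intensities carry no read depth, and the number of arrays limits precision.

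Probe sets were named with the platform annotation of 2016. Of them 19724 named 1 gene, 568 named several and 1923 were not listed. Entrez identifiers matched RefSeq for 19707, which updated 0 symbols. Gedunin (3 arrays) was compared with DMSO 1 and 2 over all probe sets with limma 3.58.1 (R 4.3.3; lmFit, eBayes without trend, no filter). Adjusted p is Benjamini-Hochberg over all probe sets, with a threshold of 0.05. In the lists a gene took its probe set with the highest mean over the 5 arrays. Of genes in lists, TFAP4, NME1 and EIF4E are in more than 1. Members, lists and the choice to set the array labelled DMSO 3 apart were made with earlier results of these data known.

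All members and all network partners were named. In each other list up to 6 called genes with the largest change were named, as were the 5 genes most like MYC and the 5 most like the other member with the largest change, and 4 genes that check the cells. Motifs were chosen after the members' changes were seen.

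On simulated data with 22215 probe sets and 50 changed at each size, the fit of 3 against 2 arrays made 5 false calls. It found 40 percent of log2 changes of 0.5, 84 percent of those of 1, and all those of 2 and 4. The real fit called many more probe sets, 1758 lower and 1638 higher, so these rates may not hold for it. Alternatives were all 6 arrays, each array left out, a replicate block, 3 other scalings, 2 other variance models, a filter on dim probe sets, log2 of the value plus 16, a threshold of 0.01, averaging a gene's probe sets, and lists without _x_at and _s_at probe sets.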

Additional observations from a re-analysis of the deposited data

How the results depend on the processing

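MYC (-0.996 to -0.79) and MLX 213708_s_at (-0.69 to -0.54) kept their direction and their call under all 15 alternatives. The alternative with all 6 arrays adds the array that lacked LNCaP markers, so it is no check of the LNCaP controls. Of 22 member probe sets called lower or higher (9 and 1), all 6 arrays gave 2 and 0 and a threshold of 0.01 gave 4 and 0. The higher count was also 0 with centring on GAPDH and ACTB, with log2 of the value plus 16 and with only probe sets above the median, which removes MXD1. Leaving out 1 array gave 3 to 8 lower and 0 to 1 higher; without 1 of the DMSO arrays the lone control is assumed to vary like the gedunin arrays.

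Uncalled values changed sign for MAX 214108_at (-0.0023 with all 6 arrays, -0.065 centred on GAPDH and ACTB), MXD4 212347_x_at (0.37 with all 6 arrays), MXI1 (-0.068) and MNT (-0.037) centred on GAPDH and ACTB, and MLX 210752_s_at (0.034 without gedunin 1, and -0.16 without gedunin 3). The cause of these shifts was not tested.

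Genes called per list (either direction) were, with all 6 arrays, 0 for cofactors, protein turnover, gene and mRNA regulators, MLX partner targets and other E-box factors, 5 for MYC-raised targets, 2 for MYC-repressed targets and 1 for MYCBP and MYCBP2 partners. Centred on GAPDH and ACTB they were 1 for network partners, 8 for cofactors, 39 for MYC-raised targets and 6 for MYCBP and MYCBP2 partners. At a threshold of 0.01 they were 2 for cofactors, 2 for protein turnover, 3 for gene and mRNA regulators, 14 for MYC-raised and 4 for MYC-repressed targets. Without _x_at and _s_at probe sets they were 4 for MYC-repressed targets, 1 for MLX partner targets and 1 for other E-box factors, and with log2 of the value plus 16 they were 5 for MYCBP and MYCBP2 partners. Leaving out 1 array gave 0 to 1 for network partners, 1 to 5 for cofactors, 1 to 6 for protein turnover, 1 to 4 for gene and mRNA regulators, 13 to 23 for MYC-raised targets, 5 to 7 for MYC-repressed targets, 2 to 2 for MLX partner targets, 3 to 4 for other E-box factors and 3 to 3 for MYCBP and MYCBP2 partners.

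The labels give both groups the same replicate numbers. The deviations of same-numbered arrays from their group means correlated at -0.033 and 0.039. The DMSO deviations used here are exact negatives of each other, so each correlation rests on the same DMSO difference. These values therefore cannot show whether same-numbered arrays were grown or processed together, and this was not tested otherwise. With the replicate block, which leaves gedunin 3 without a partner and so without weight, 8 member probe sets were lower and 1 higher, MYC had -0.87, and 3 cofactors and 3 gene and mRNA regulators were called. Folds of probe sets below the array median, MXD1 among them, are limited by their signal over background.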
